A study of Mus musculus with 20 samples.

Results

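Embryonic stem cell (ESC) lines without the cell-death gene Bax were compared with wildtype ESC lines derived from host embryos. The comparison took 6 of the 20 libraries of the study by their labels: both ESC BaxKO libraries (n = 2) and all ESC Host libraries (n = 4). A Bax heterozygous line, ESC BaxHet (n = 1), is given beside them as a single reference library. The 20 libraries hold poly(A)-selected RNA from mouse lines, in a study that placed primordial germ cells (PGCs) in early embryos to examine their potency.

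Both compared groups have the same labelled cell type, and the protocol grew ESCs on gelatin in medium with LIF, a MEK inhibitor and a GSK3 inhibitor. They differ in genotype (BaxKO against Wildtype) and in strain label, which is C57Bl6J/129SvEvRoEp for ESC BaxKO and ESC BaxHet and C57Bl6J for ESC Host. The ESC BaxKO lines were made before the study and the Host lines alongside the other lines of the study. The libraries differ in 2 further ways, an EGFP transcript and Y-linked reads, given with the results. Bax genotype, strain label, time of derivation, EGFP and Y-linked reads cannot be told apart in this comparison. The labels name lines; whether lines came from separate embryos is not stated there, so p-values measure the spread between these libraries. PGC-derived ESC lines (PGC-ESC) with the Bax knockout (n = 5) and with a double knockout of Puma and Noxa, called DKO (n = 3), carry the same pair of strain labels and share no library with the comparison.

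Mouse ESCs are derived from the inner cell mass of the blastocyst. In medium with LIF and inhibitors of MEK and GSK3 they hold a naive pluripotent state, in which GSK3 inhibition stabilises beta-catenin and LIF signals through STAT3. Bax is one of the proteins that permeabilise the outer mitochondrial membrane when BH3-only proteins such as Puma and Noxa signal cell death, while Bcl2, Bcl2l1 and Mcl1 hold that step back. ESC lines of different mouse strains are known to differ in gene expression without any engineered change, and sequence next to an engineered allele often keeps the strain of the cell in which the allele was made.

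The libraries held 20106562 to 32344009 counts in all. The ESC markers Pou5f1, Sox2, Nanog, Zfp42, Esrrb and Klf4 summed to 4231 to 5323 scaled CPM (counts relative to library size after TMM scaling, used for every level below) in the 6 libraries, and the range of the knockouts overlapped that of the Host lines. Markers of feeder fibroblasts summed to 2.34 to 6.10 scaled CPM, with overlap between the groups, and Postn was at 0 in all 6 libraries. Trophoblast markers summed to 20.5 and 33.2 in ESC BaxKO 1 and 2 against 12.3 to 19.1 in the Host lines. Primitive endoderm markers summed to 4.27 and 4.14 against 4.95 to 9.90, so these 2 sums did not overlap between the groups. The higher trophoblast sum came from Cdx2, at 17.0 and 26.8 against 1.30 to 8.77. Eomes went the other way without overlap (3.17 and 4.89 against 5.85 to 12.6), and Gata3 and Elf5 overlapped between the groups. The sum thus does not describe the trophoblast markers as a set. Rn45s, the ribosomal RNA precursor, was at 3213 to 4078 scaled CPM in ESC BaxKO 1 and Host 1 and 2, and at 18300 to 61559 scaled CPM in ESC BaxKO 2 and Host 3 and 4, so each group held libraries of both kinds. Host 4 stood apart, with 28.5% of its counts in its 100 most abundant genes, against 18.1 to 20.7% in the other 5 libraries.

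Bax was at 1.64 and 2.42 scaled CPM in ESC BaxKO 1 and 2, and at 277, 286, 338 and 632 scaled CPM in Host 1 to 4. Both knockout libraries lay far below every Host library, and ESC BaxHet lay between them at 105.5 scaled CPM. Bax, on chromosome 7 from 45461695 to 45466903 (GRCm38.p6), was lower in ESC BaxKO in a quasi-likelihood fit with edgeR, with p adjusted over 16363 genes by the Benjamini-Hochberg method, as is every adjusted p below (log2 fold change -7.57 ± 0.43 SE, adjusted p 8.33e-09). EGFP, a reporter transcript listed among the genes, was at 3048 and 3416 scaled CPM in ESC BaxKO, 1640 in ESC BaxHet, 0 in Host 1 to 3 and 0.649 in Host 4 (14.71 ± 0.57, adjusted p 3.16e-11). The reporter thus separated the labelled genotypes as completely as Bax did.

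**Figure D1:**
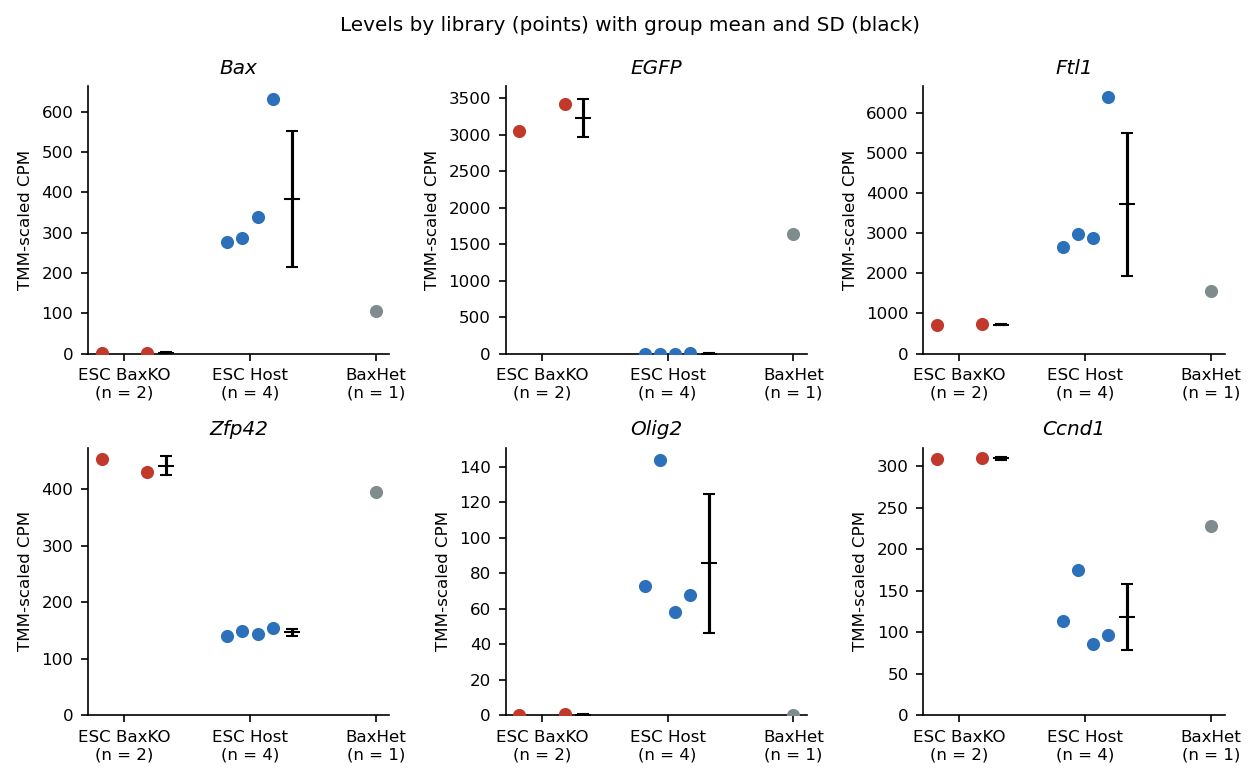
Levels in scaled CPM (vertical axes, starting at 0) of Bax, EGFP, Ftl1, Zfp42, Olig2 and Ccnd1 in ESC BaxKO (n = 2), ESC Host (n = 4) and ESC BaxHet (n = 1); points are libraries and black marks are group means with SD. In all 6 genes both ESC BaxKO points lie outside the range of the 4 Host points, and the highest Host point for Bax and Ftl1 is Host 4.

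At an adjusted p under 0.05, 821 of 16363 tested genes differed (5.02%): 451 were higher in ESC BaxKO (2.76%) and 370 were lower (2.26%). A gene past this threshold is referred to as called. The median log2 fold change was 1.5 over the higher and -1.84 over the lower genes, against -0.05 over all tested genes. With genes at 0 in a whole group set to their bound, which takes 3 counts in that group, the median of the lower genes was -1.81. Changes of at least 2-fold made up 305 of the higher and 292 of the lower genes. Of the higher genes, 439 had both ESC BaxKO libraries above all Host libraries, and of the lower genes 369 had both below; over all tested genes 13.5% lay above and 13.9% below without overlap. Within each of the Rn45s sets, 816 of the 821 genes kept their direction, against 62.2% of all tested genes. The sets split the same libraries that gave the calls, and 808 of the 821 had no overlap between groups. Their direction in both sets was thus largely fixed in advance and does not test the Rn45s set. The counts without overlap come from the same libraries too.

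The number of genes rested on both knockout lines. Without ESC BaxKO 1 there were 245 called genes and without ESC BaxKO 2 there were 182; of the original 821, 223 and 176 were still called. With the level of Y-linked genes as a covariate 275 genes were called, 256 of them among the 821, and without Host 3 537 were called. With only the compared libraries in the fit, 126 of the 821 were still called and 39 were not tested. For single genes below, losses are given mainly for fits without 1 library. A gene may also lose its call in the other fits. Leaving out a knockout line leaves a single library in that group, so a call lost there does not by itself show a smaller change. Across 15 alternative fits, 73 genes were called in every one, 52 of them higher and 21 lower.

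**Figure D2:**
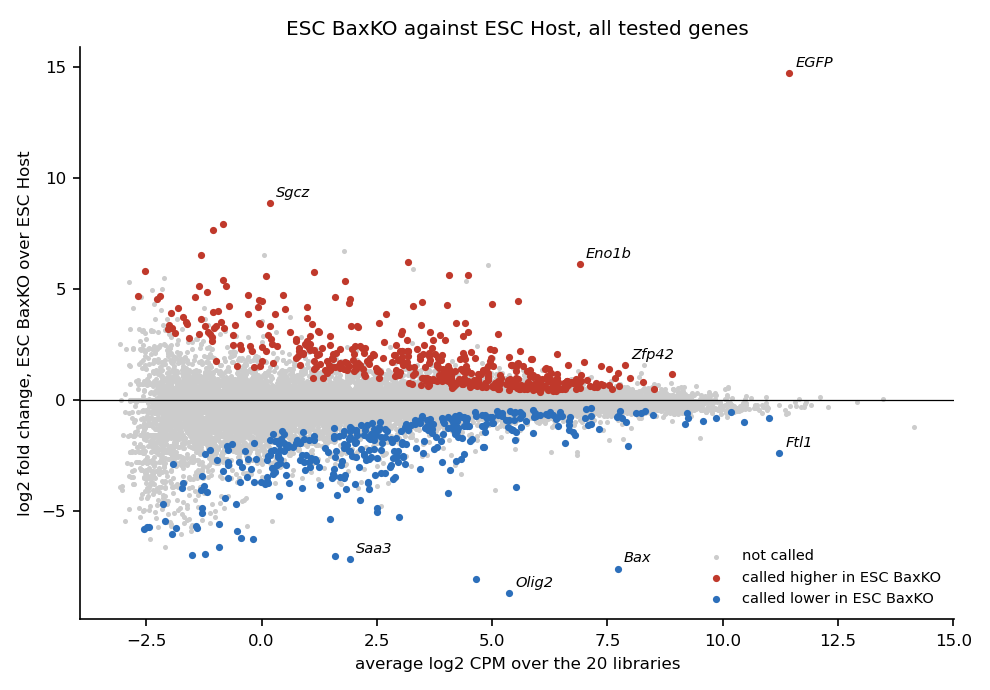
Log2 fold change of ESC BaxKO over ESC Host (vertical axis) against the average log2 CPM over the 20 libraries (horizontal axis) for all 16363 tested genes; red points are the 451 called higher, blue points the 370 called lower and grey points the rest. EGFP stands highest and Olig2 and Bax are among the lowest.

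The higher gene with the smallest adjusted p after EGFP was Zfp42, which encodes REX1, a zinc-finger protein used as a marker of the naive state. It was at 454 and 431 scaled CPM in ESC BaxKO and at 139.5, 149.5, 144 and 154 scaled CPM in Host 1 to 4. Both groups were tight and did not overlap, and ESC BaxHet stood beside the knockouts at 396 scaled CPM. The change was 1.59 ± 0.10 (log2, adjusted p 2.15e-08). Triml2, a tripartite-motif-like gene in the same stretch of chromosome 8, was chosen for mention after its values were seen. It was at 95.6 and 90.7 scaled CPM in ESC BaxKO, 30.2 to 41.8 in the Host lines and 101.6 in ESC BaxHet (1.31 ± 0.15, adjusted p 8.94e-05).

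The 250 bases before the RefSeq transcript starts of Zfp42 and Triml2 are shown because both of these genes were higher. Capitals mark 2 motifs, the GC box GGGCGG and the octamer ATTTGCAT, each read on both strands. Zfp42 has 2 GC boxes and 1 octamer and Triml2 has neither. Of 32851 RefSeq promoters of this length, 32.7% hold a GC box and 1.6% the octamer. The Zfp42 sequence is chr8:43307010-43307259 on the minus strand and the Triml2 sequence chr8:43180286-43180535 on the plus strand of GRCm38.p6, each written in the direction of the gene.
Zfp42: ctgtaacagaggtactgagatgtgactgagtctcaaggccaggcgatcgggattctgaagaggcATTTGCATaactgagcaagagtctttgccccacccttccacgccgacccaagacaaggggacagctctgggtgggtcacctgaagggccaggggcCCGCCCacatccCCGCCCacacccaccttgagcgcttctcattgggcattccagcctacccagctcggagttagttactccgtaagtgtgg
Triml2: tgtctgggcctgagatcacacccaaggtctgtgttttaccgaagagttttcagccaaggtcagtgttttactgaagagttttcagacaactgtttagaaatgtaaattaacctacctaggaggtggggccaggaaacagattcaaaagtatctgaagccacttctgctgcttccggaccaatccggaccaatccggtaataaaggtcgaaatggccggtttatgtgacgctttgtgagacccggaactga

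The next higher genes were near-identical copies or genes close to silent in the Host lines. The zinc-finger gene Zfp607b was at 38.4 and 35.5 scaled CPM in ESC BaxKO and 1.10 to 2.44 in the Host lines (4.26 ± 0.28, adjusted p 4.23e-08). Gm4737 was at 127 and 93.7 scaled CPM against 1.84 to 7.73 (4.44 ± 0.31, adjusted p 1.53e-07), and Eno1b was at 234 and 435 against 1.53 to 9.92 (6.13 ± 0.48, adjusted p 6.91e-07). Their transcripts match those of Ahcy, which hydrolyses S-adenosylhomocysteine, at 99.7% identity, and of the enolase gene Eno1 at 99.5%, so the assignment of their reads is uncertain.

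The next 3 genes were at less than 5 scaled CPM in every Host line. Arhgap30 was at 30.1 and 28.9 scaled CPM in ESC BaxKO and 2.60 to 4.66 in the Host lines (3.09 ± 0.29, adjusted p 9.55e-06). Ccnb1ip1, a ubiquitin ligase needed for meiotic crossing-over, was at 11.6 and 15 against 1.16 to 2.30 (2.99 ± 0.29, adjusted p 1.17e-05). Kbtbd11, a Kelch and BTB domain gene, was at 38.6 and 41.2 against 0.0975 to 1.85 (5.64 ± 0.58, adjusted p 2.74e-05). In each of these the lowest knockout library was above the highest Host library, and ESC BaxHet, at 27.1, 27.3 and 45.7 scaled CPM, was on the knockout side. Kbtbd11 shares 1775 identical bases with Gm37844 and Zfp607b matches Zfp60 at 95.4% over 327 bases, so their reads may be divided wrongly.

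Pla2g4e, a cytosolic phospholipase A2, was at 21.8 and 11.8 scaled CPM in ESC BaxKO, 0 to 0.629 in the Host lines and 13.5 in ESC BaxHet (6.20 ± 0.65, adjusted p 3.31e-05). Ushbp1, named for binding the Usher syndrome protein harmonin, was at 6.19 and 9.77 against 0 to 0.444 scaled CPM (5.37 ± 0.59, adjusted p 5.61e-05). Some higher genes had no count in any Host library, where a fold is a lower bound against 3 counts over the 4 Host libraries, covering counting error only. Sgcz, the zeta subunit of sarcoglycan, was at least 78.4-fold higher, from 2.63 and 2.09 scaled CPM in ESC BaxKO. The long noncoding RNA gene Gm30214, which has a near-identical copy, was at least 38.9-fold higher, and the arylsulfatase gene Arsj at least 15.2-fold higher.

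Among the lower genes with a count in both groups, the fitted falls of Olig2 and Olig1 were larger than that of Bax. They are neighbouring transcription factor genes of the oligodendrocyte and motor neuron lineages on chromosome 16. Olig2 was at 0.0711 and 0.372 scaled CPM in ESC BaxKO, 57.9 to 144 in the Host lines and 0.0897 in ESC BaxHet (-8.67 ± 2.19, adjusted p 0.0307). Olig1 was at 0.0711 and 0.233 against 32.8 to 44.2 scaled CPM, with 0.179 in ESC BaxHet (-8.03 ± 1.85, adjusted p 0.0191). No library of one group approached the other group in either gene. The calls of both ended without ESC BaxKO 1 and without ESC BaxKO 2, but the changes stayed large. Without ESC BaxKO 1 the log2 fold change was -7.82 for Olig2 and -7.34 for Olig1. Without ESC BaxKO 2 it was -10.1 for Olig2 and -8.98 for Olig1.

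Rgcc, a regulator of the cell cycle, was at 1.24 and 1.49 scaled CPM in ESC BaxKO and 7.11 to 22.5 in the Host lines (-3.52 ± 0.45, adjusted p 0.000181). Shisa8 was at 2.67 and 3.86 against 14.4 to 37.5 (-3.13 ± 0.37, adjusted p 9.62e-05), and Smpdl3b, a sphingomyelin phosphodiesterase-like gene, at 5.23 and 7.49 against 27.8 to 51.2 (-2.62 ± 0.35, adjusted p 0.000271). Fkbp10, a prolyl isomerase that acts on collagen, was at 0.854 and 0.791 against 3.89 to 5.06 (-2.50 ± 0.34, adjusted p 0.000354). None of these 4 overlapped between groups, and ESC BaxHet lay below the lowest Host library in all 4, at 4.57, 7.27, 5.02 and 1.23 scaled CPM. The other genes with the smallest adjusted p among the lower ones, Saal1, Htatip2, Saa3, Rasip1 and Gas2, lie on chromosome 7 near Bax and are described with that region.

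**Figure D3:**
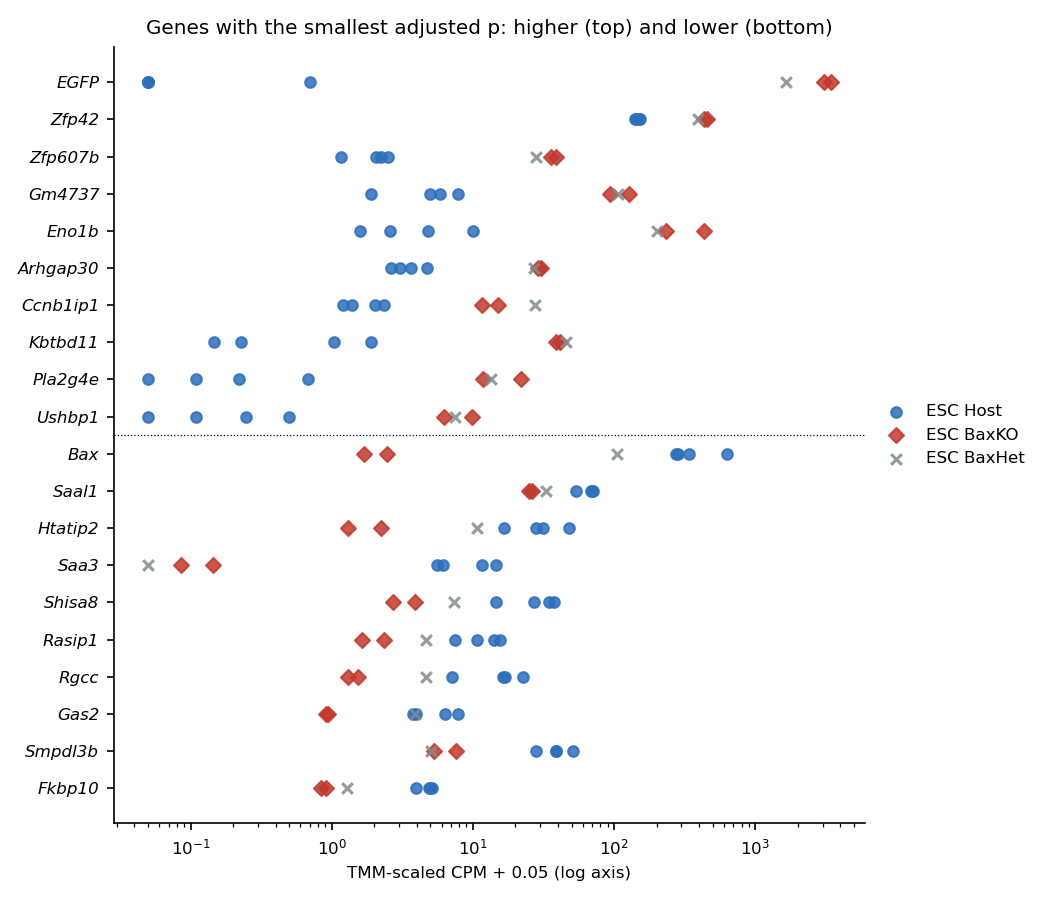
Scaled CPM plus 0.05 (log axis) of the 10 higher and 10 lower genes with the smallest adjusted p, by library; blue circles are ESC Host (n = 4), red diamonds ESC BaxKO (n = 2) and grey crosses ESC BaxHet (n = 1). The red diamonds lie right of the blue circles in the top block and left of them in the bottom block.

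Called genes were frequent around Bax, and most of them were lower in the knockout. Leaving Bax out, 21 of 102 tested genes within 1 Mb were called (20.6%), 3 higher and 18 lower, with a median log2 fold change of -0.27. Within 5 Mb 31 of 166 were called (18.7%), 6 higher and 25 lower; the median was -0.26, or -0.24 with genes at 0 in a group set to their bound. Beyond 10 Mb on the same chromosome 51 of 1119 were called (4.56%), near the 5.02% of all tested genes. On the distal side, toward higher coordinates, 18 of 62 genes within 5 Mb were called (29.0%, median -0.56), and on the proximal side 13 of 104 (12.5%, median -0.19). Without ESC BaxKO 1 the region within 5 Mb had 10 called genes (6.02%), when 1.5% of all tested genes were called, and without ESC BaxKO 2 it had 14 (8.43%), against 1.11% of all.

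Among 435 windows of 5 Mb with at least 10 tested genes, 5 had 20% or more called. The window from 45 to 50 Mb of chromosome 7, which holds Bax, had 25 of 95 called (26.3%), 21 of them lower. A window of chromosome 15 (65 to 70 Mb) had 4 of 11 called (36.4%), all higher: Efr3a, Lrrc6, Ndrg1 and Oc90. Oc90 kept its call without each library in turn, and the other 3 lost it without ESC BaxKO 2 (adjusted p 0.242, 0.272 and 0.0926) and Host 3 (0.0619, 0.0615 and 0.0535), Efr3a and Ndrg1 also without ESC BaxKO 1 (0.141 and 0.143) and Efr3a and Lrrc6 also without Host 4 (0.0526 and 0.0522). The other 3 windows held 3 or 4 called genes each. Over the autosomes, the share ran from 2.36% on chromosome 10 to 7.19% on chromosome 16, with 6.58% on chromosome 7 and 18 of 633 genes (2.84%) on X and 0 of 8 on Y.

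The gene nearest to Bax was Ftl1, the ferritin light chain, whose midpoint is 5.38 kb away (45457944 to 45459886). It was at 708 and 732 scaled CPM in ESC BaxKO, 2654, 2972, 2896 and 6393 in Host 1 to 4 and 1559 in ESC BaxHet. The knockouts were close to each other and below every Host library, and Host 4 was far above the other Host lines. The change was -2.37 ± 0.33 (adjusted p 0.000434), and the call ended with only the compared libraries in the fit (adjusted p 0.0517). Ftl1 has near-identical processed copies, such as Ftl1-ps1 at 99.6% identity, so the assignment of its reads is uncertain.

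The 250 bases before the RefSeq starts of Bax and Ftl1 are shown because these adjacent genes fell together; both lie on the minus strand of GRCm38.p6, at chr7:45466899-45467148 for Bax and chr7:45459887-45460136 for Ftl1. GC boxes (GGGCGG on either strand) are in capitals, with 2 in Bax and 1 in Ftl1, and neither sequence holds the octamer. The Bax sequence has 14 CpG and 54.0% G and C and the Ftl1 sequence 17 CpG and 65.2%, against medians of 6 CpG and 52.4% over all 32851 promoters.
Bax: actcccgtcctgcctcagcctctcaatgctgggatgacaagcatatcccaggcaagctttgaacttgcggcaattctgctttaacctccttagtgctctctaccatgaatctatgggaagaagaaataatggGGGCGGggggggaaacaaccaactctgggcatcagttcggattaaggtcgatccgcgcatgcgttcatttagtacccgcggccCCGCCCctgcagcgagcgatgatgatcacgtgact
Ftl1: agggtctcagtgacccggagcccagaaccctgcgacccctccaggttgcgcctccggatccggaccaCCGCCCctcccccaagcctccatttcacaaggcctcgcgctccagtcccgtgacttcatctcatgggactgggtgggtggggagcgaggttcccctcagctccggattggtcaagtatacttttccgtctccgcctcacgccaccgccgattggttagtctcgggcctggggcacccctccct

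Other called genes beside Bax differed in size of change. Ruvbl2, an ATPase of chromatin-remodelling complexes, was at 203 and 227 scaled CPM in ESC BaxKO and 263 to 360 in the Host lines (-0.57 ± 0.13, adjusted p 0.0157). Bcat2, the mitochondrial branched-chain aminotransferase, was at 68.9 and 105 against 145 to 251 (-1.09 ± 0.22, adjusted p 0.00917). The noncoding gene 0610005C13Rik was at 0.498 and 0.698 against 2.73 to 4.25 (-2.61 ± 0.44, adjusted p 0.00244). All 3 were lower without overlap; without ESC BaxKO 1 the call ended for Ruvbl2 (adjusted p 0.178), Bcat2 (0.162) and 0610005C13Rik (0.0580), and without ESC BaxKO 2 for Ruvbl2 (0.0879). Hsd17b14, a hydroxysteroid dehydrogenase, went the other way, with 158 and 142 scaled CPM against 38.4 to 92.3 (1.44 ± 0.28, adjusted p 0.00653), and its call ended without ESC BaxKO 1 (0.0688).

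Rasip1, a Ras-interacting protein of endothelium, was at 2.31 and 1.58 scaled CPM in ESC BaxKO and 7.41 to 15.6 in the Host lines (-2.60 ± 0.31, adjusted p 0.000102). Its neighbour Izumo1, the sperm protein of egg fusion, was at 0.142 and 0 against 0.444 to 0.650 (-2.76 ± 0.72, adjusted p 0.0352). The transcripts of both share 552 identical bases, so their reads may be divided wrongly, and the Izumo1 call ended without ESC BaxKO 2 (adjusted p 0.273), Host 3 (0.0652) or Host 4 (0.0547).

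A cluster of serum amyloid A genes lies 1.23 to 1.27 Mb distal of Bax. Saal1, a serum amyloid A-like gene, was at 26.3 and 25 scaled CPM in ESC BaxKO, 53.6, 68.4, 71.2 and 70.2 in Host 1 to 4 and 32.8 in ESC BaxHet (-1.36 ± 0.14, adjusted p 1.86e-05). Saa3, an acute-phase gene, had 3 counts in all in ESC BaxKO, at 0.0356 and 0.0931 scaled CPM, against 5.51 to 14.5 in the Host lines and 0 in ESC BaxHet. The ratio of Host to knockout was 147 (95% counting interval 50.1 to 714, adjusted p 8.94e-05). Saa4 had no count in ESC BaxKO and was at least 4.38-fold lower (adjusted p 0.0426), a call that ended without ESC BaxKO 1 (0.209), ESC BaxKO 2 (0.210), Host 1 (0.0687), Host 3 (0.0808) or Host 4 (0.0606). All 3 genes were lower, and in Saal1 and Saa3 the ESC BaxHet library was below every Host library too.

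Farther out, Htatip2, an oxidoreductase-like gene, lies 4.30 Mb distal. It was at 1.24 and 2.19 scaled CPM in ESC BaxKO, 16.7 to 48.1 in the Host lines and 10.7 in ESC BaxHet (-4.18 ± 0.43, adjusted p 2.59e-05). Gas2, an actin-associated growth-arrest gene 6.46 Mb distal, was at 0.854 and 0.884 against 3.73 to 7.73 (-2.64 ± 0.34, adjusted p 0.000261). Ldhc, the testis lactate dehydrogenase, was the highest-fold gene that rose on this side, at 5.87 and 5.31 against 0.257 to 0.767 scaled CPM (3.71 ± 0.46, adjusted p 0.000167). It was named after its values were seen.

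**Figure D4:**
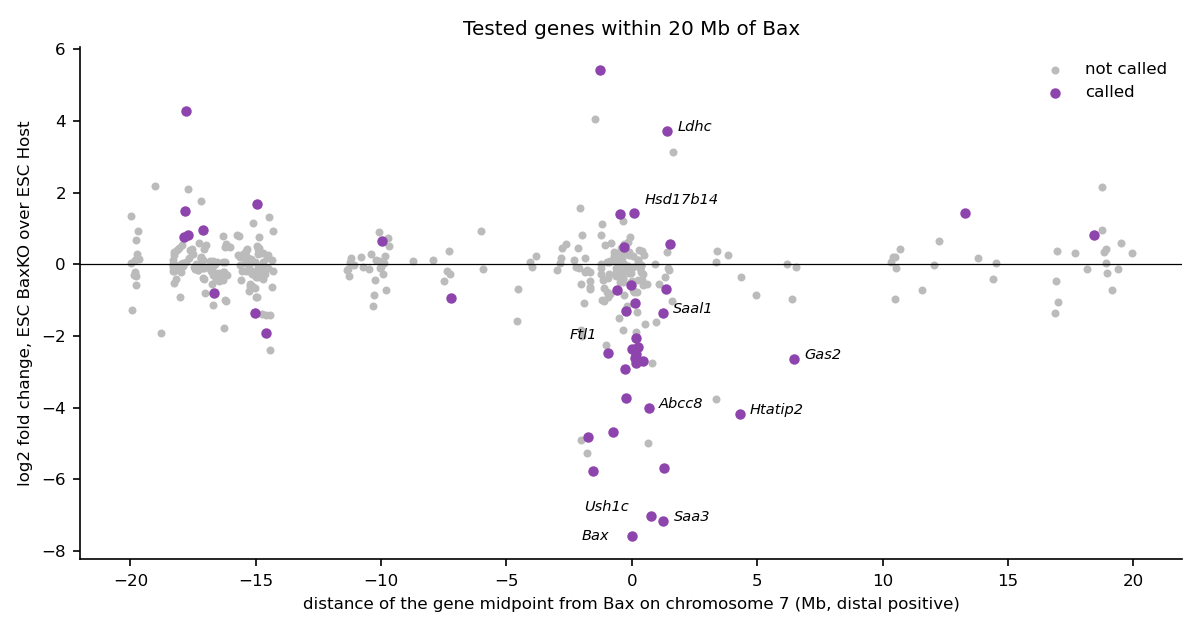
Log2 fold change of ESC BaxKO over ESC Host (vertical axis) against the distance of each tested gene's midpoint from Bax on chromosome 7 (horizontal axis, Mb, distal positive) within 20 Mb; purple points are called and grey points are not. Between 0 and 5 Mb on the distal side 15 called genes lie below 0 and 3 above.

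Gene lists drawn from textbook knowledge are read against the shares of all tested genes, 5.02% called, 2.76% higher and 2.26% lower, and their median of -0.05. In a list of about 20 genes, 1 call is near 5.02%. Of 12 core pluripotency genes 1 was called, lower, and of 18 naive pluripotency genes 1 was called, Zfp42; their medians were -0.05 and -0.01. Pou5f1 was at 1247 and 1162 scaled CPM in ESC BaxKO against 1278 to 2207 (-0.37 ± 0.22, adjusted p 0.349), Sox2 at 783 and 773 against 657 to 864, and Esrrb at 825 and 759 against 797 to 930. The called core gene was Tdgf1, a co-receptor of Nodal, at 445 and 337 against 563 to 861 scaled CPM (-0.78 ± 0.21, adjusted p 0.0439). The groups did not overlap for Tdgf1, but its call ended without ESC BaxKO 1 (adjusted p 0.104), ESC BaxKO 2 (0.375), Host 1 (0.0611) or Host 3 (0.100), and it has a processed copy at 98.8% identity.

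Receptors and targets of LIF signalling were higher in 2 of 12 members, against 2.76% of all tested genes. Il6st, which encodes the shared receptor subunit gp130, was at 153 and 166 scaled CPM in ESC BaxKO and 56.0 to 109 in the Host lines (0.85 ± 0.20, adjusted p 0.0202). Junb, a transcription factor induced through STAT3, was at 20.9 and 21.0 against 9.09 to 15.1 (0.85 ± 0.22, adjusted p 0.0363). Lifr, the partner receptor, was at 73.3 and 99.6 against 40.0 to 67.1 (adjusted p 0.111), and Stat3 at 138 and 156 against 84.6 to 142 (adjusted p 0.445). The list median was 0.23. The Il6st call ended without ESC BaxKO 1 (adjusted p 0.0964) or ESC BaxKO 2 (0.179), and the Junb call without any one of 5 libraries, ESC BaxKO 1 (0.178), ESC BaxKO 2 (0.216), Host 1 (0.0546), Host 2 (0.0622) and Host 4 (0.0716).

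WNT target genes were higher in 3 of 14 members (2.76% of all tested genes) and lower in none (2.26% of all), with a list median of 0.91 and 11 positive fold changes. Ccnd1, which encodes cyclin D1, was at 308 and 310 scaled CPM in ESC BaxKO, 114, 175, 85.7 and 96.5 in Host 1 to 4 and 228 in ESC BaxHet (1.39 ± 0.23, adjusted p 0.00224). Sp5, a transcription factor induced directly by beta-catenin, was at 177 and 154 against 49.6 to 75.4 (1.40 ± 0.32, adjusted p 0.0167). Axin2, a feedback inhibitor of the pathway, was at 173 and 187 against 48.2 to 105 (1.18 ± 0.33, adjusted p 0.0499). None of the 3 overlapped between groups. Ccnd1 shares 818 identical bases with LTO1.

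Ccnd1 kept its call without each library in turn, but lost it with only the compared libraries in the fit (adjusted p 0.0525). With the Y-linked level as a covariate the calls of Sp5 (adjusted p 0.129) and Axin2 (0.282) ended. Sp5 lost it without ESC BaxKO 1 (adjusted p 0.134) or ESC BaxKO 2 (0.0922), and Axin2 without ESC BaxKO 1 (0.183), ESC BaxKO 2 (0.268), Host 1 (0.0705), Host 3 (0.0920) or Host 4 (0.103). Of the other members, Notum, an extracellular WNT inhibitor, was at 209 and 325 against 75.9 to 196 (adjusted p 0.0560), Cdx2 at 17.0 and 26.8 against 1.30 to 8.77 (0.0678) and Lef1 at 34.4 and 43.8 against 13.0 to 31.3 (0.284). Tcf7l1, a repressor of the pathway's targets, was at 133 and 173 against 104 to 238 scaled CPM.

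Genes of the two-cell-like state, a rare state of ESCs with transcripts of the cleavage-stage embryo, were lower in 5 of 20 tested members (2.26% of all tested genes), with a list median of -2.53. Their summed level was 6.86 and 9.03 scaled CPM in ESC BaxKO, 89.4, 17.3, 28.6 and 36.0 in Host 1 to 4 and 4.45 in ESC BaxHet. Host 1 had the highest sum, and both knockouts were below all Host lines. Tmem92 was at 0.320 and 0.372 against 1.62 to 7.88 (-3.48 ± 0.86, adjusted p 0.0278), and Pramef25 at 0.391 and 0.186 against 1.20 to 6.92 (-3.35 ± 0.87, adjusted p 0.0348). The transcription factor gene Dux, which drives the state, had no count in ESC BaxKO and was at least 6.57-fold lower, with 0.814 and 0.487 scaled CPM in Host 1 and 3 and under 0.06 in Host 2 and 4.

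Tcstv1 had 3 counts in ESC BaxKO (Host to knockout ratio 17.0, interval 5.66 to 83.9, adjusted p 0.0237) and Tdpoz1 had 1 (ratio 26.3, interval 4.52 to 1058, adjusted p 0.0143). Both have near-identical copies, so the assignment of their reads is uncertain, and in bulk RNA fewer cells in this state and less RNA per cell cannot be told apart. Zscan4d, of the Zscan4 family that marks the state, was at 0.782 and 0.884 against 1.97 to 9.58 scaled CPM (adjusted p 0.110). Each of the 5 calls ended without either knockout line, at adjusted p of 0.165 (Pramef25), 0.172 (Tdpoz1), 0.204 (Tmem92), 0.212 (Tcstv1) and 0.217 (Dux) without ESC BaxKO 1, and 0.0559 (Tdpoz1), 0.142 (Tcstv1), 0.210 (Tmem92), 0.217 (Dux) and 0.276 (Pramef25) without ESC BaxKO 2. The Dux and Pramef25 calls also ended without Host 1 (0.0600 and 0.0624), and the Dux call without Host 3 (0.0684).

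Among 7 tested cell-death effectors and inhibitors, Bax included, 1 was called lower, Bax itself, and 1 higher, Bcl2. Over all tested genes 2.26% were called lower and 2.76% higher. Bcl2 was at 0.711 and 0.931 scaled CPM against 0.0590 to 0.343 (1.99 ± 0.47, adjusted p 0.0225), a level of under 1 in all 6 libraries; its transcript shares 498 identical bases with D630008O14Rik, and the call ended without ESC BaxKO 1 (0.0800), ESC BaxKO 2 (0.187) or Host 3 (0.0559). Bak1, the other main pore-forming effector, was at 103 and 87.7 against 76.1 to 136 (adjusted p 0.639), Bcl2l1 at 56.8 and 63.2 against 64.5 to 70.9 (0.403) and Mcl1 at 377 and 309 against 401 to 530 (0.0941). None of 12 BH3-only genes, 16 apoptosome and caspase genes or 23 p53 pathway genes was called, where 5.02% of all tested genes were, with medians of -0.18, 0.00 and -0.19. Pmaip1, which encodes Noxa, was at 9.39 and 6.24 against 21.3 to 51.3 scaled CPM without overlap but did not pass (-2.19 ± 0.72, adjusted p 0.0928).

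Among germ cell genes, Kit, the receptor for stem cell factor, was higher, at 398 and 362 scaled CPM in ESC BaxKO, 143 to 256 in the Host lines and 353 in ESC BaxHet (0.99 ± 0.21, adjusted p 0.0114). It was the 1 called gene of 10 early germ cell genes, whose median was 0.90. Prdm1, the factor that starts germ cell specification, was at 31.2 and 17.1 against 4.00 to 12.1 without overlap (1.6 ± 0.46, adjusted p 0.0512). The Kit call ended without ESC BaxKO 1 (adjusted p 0.108) or ESC BaxKO 2 (0.0722). Of 21 late germ cell genes, with a median of -0.30 and 7 positive fold changes, 1 was called, the piRNA pathway gene Tdrd12, at 219 and 156 against 109 to 136 (0.64 ± 0.17, adjusted p 0.0345); it lies near Bax, 10 Mb off or less, and its call ended without ESC BaxKO 1 (0.412), Host 2 (0.0548), Host 3 (0.0787) or Host 4 (0.0503).

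Of the lineage lists, primitive endoderm had 1 higher and 1 lower gene among 17 (median -0.76, 3 positive). Trophoblast had 1 higher and 1 lower among 13 (median -1.28, 3 positive). In the trophoblast list 6 genes had both knockouts below all Host libraries, as did 13.9% of all tested genes. Mesendoderm had 1 lower gene among 12 (median -0.48, or -0.33 with bounds). Lists may share members, as Eomes, given below, also served as a trophoblast marker. The lower genes of these lists therefore need not be separate genes. Lama1, a laminin chain of basement membranes, was higher (161 and 227 against 25.1 to 70.7 scaled CPM, 2.10 ± 0.40, adjusted p 0.00566), and so was Tfap2a, a transcription factor of ectoderm and trophoblast (14.7 and 23.2 against 1.30 to 4.50, 2.63 ± 0.46, adjusted p 0.00344). Both were above all Host libraries, and without ESC BaxKO 2 both calls ended (adjusted p 0.0922 and 0.0658). Eomes and Pou3f1, factors of the formative and primed epiblast, were lower: Eomes at 3.17 and 4.89 against 5.85 to 12.6 (-1.31 ± 0.35, adjusted p 0.0374) and Pou3f1 at 2.45 and 2.51 against 4.33 to 7.90 (-1.34 ± 0.37, adjusted p 0.0460). The Eomes call ended without ESC BaxKO 1 (0.303), ESC BaxKO 2 (0.121), Host 2 (0.0597) or Host 3 (0.0834), and the Pou3f1 call without ESC BaxKO 1 (0.241), ESC BaxKO 2 (0.255), Host 1 (0.0776), Host 3 (0.0664) or Host 4 (0.0885).

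The neuroectoderm list had 1 higher gene among 13 (median -0.35, or -0.25 with bounds, 4 positive), and the fibroblast and feeder list 1 among 14 (median -0.96, or -0.41 with bounds, 4 positive). The formative and primed epiblast list had 2 lower genes among 12 (median -0.25) and the FGF-ERK feedback list 1 among 16 (median -0.23). Sox7, an endoderm transcription factor, was lower at 0.320 and 0.0931 scaled CPM against 1.41 to 3.04 (adjusted p 0.0314), and Spry1, an inhibitor of ERK signalling, was lower at 4.84 and 6.24 against 10.1 to 13.2 (0.0132). Nes, which encodes nestin, was higher at 33.4 and 29.6 against 11.8 to 23.5 (0.0200), and Col1a2, a collagen chain, was higher at 0.640 and 1.58 against 0 to 0.257 (0.0246). Without ESC BaxKO 2 all 4 lost their calls (0.276, 0.0611, 0.0981 and 0.308), as did Sox7, Spry1 and Nes without ESC BaxKO 1 (0.112, 0.172 and 0.161), Sox7 without Host 4 (0.0505) and Col1a2 without Host 1 (0.0524).

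Of the imprinted genes, 2 of 24 paternally expressed and 0 of 20 maternally expressed members were called, near the 5.02% of all tested genes; the medians were -0.36 and -0.02, the second 0.07 with bounds. Inpp5f, an inositol phosphatase gene with an imprinted transcript, was at 14.2 and 14.4 scaled CPM against 3.96 to 6.96 (1.32 ± 0.22, adjusted p 0.00244) and kept its call without each library in turn. With only the compared libraries in the fit the Inpp5f call ended (adjusted p 0.0871). Mcts2 was at 16.3 and 12.8 against 19.4 to 30.0 (-0.73 ± 0.19, adjusted p 0.0364); its call ended without ESC BaxKO 1 (0.0964), ESC BaxKO 2 (0.333), Host 1 (0.0508) or Host 4 (0.0698). Meg3, the maternally expressed noncoding RNA of the Dlk1 locus, was at 431 and 482 against 87.4 to 258 without overlap and did not pass (1.56 ± 0.68, adjusted p 0.201). In the other lists, Wdfy1, a FYVE-domain gene from a list of genes whose alleles differ between C57BL/6J and 129 strains, was higher (26.5 and 24.9 against 9.55 to 16.3, 0.99 ± 0.17, adjusted p 0.00244) and was at 54.0 scaled CPM in ESC BaxHet. With only the compared libraries in the fit the Wdfy1 call ended (adjusted p 0.105). Nnt, the transhydrogenase gene of that list, was at 50.7 and 67.2 against 37.1 to 53.7 scaled CPM (adjusted p 0.549).

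Glrx (glutaredoxin), Ifi27 and Stard4, of the antioxidant, interferon and cholesterol lists, were the 1 called member of each, all higher. These lists have 17, 22 and 20 tested members and medians of -0.21, 0.31 and -0.18, with 4, 16 and 6 positive fold changes, and 1 call in each is near the 5.02% of all tested genes. Glrx was at 19.4 and 18.7 scaled CPM against 1.56 to 9.14 (adjusted p 0.0374), Ifi27 at 2.85 and 3.02 against 0.422 to 0.857 (0.0206) and Stard4 at 61.1 and 53.7 against 27.3 to 42.4 (0.0420). All 3 lost their calls without ESC BaxKO 1 (adjusted p 0.172, 0.100 and 0.262) and without ESC BaxKO 2 (0.184, 0.133 and 0.160), and without Host 3 too (0.0773, 0.0536 and 0.0878). Glrx lost it without Host 2 (0.0587) or Host 4 (0.0783) and Stard4 without Host 1 (0.0562) or Host 4 (0.0843). No gene was called among 20 glycolysis genes or 13 genes of DNA methylation and demethylation.

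**Figure D5:**
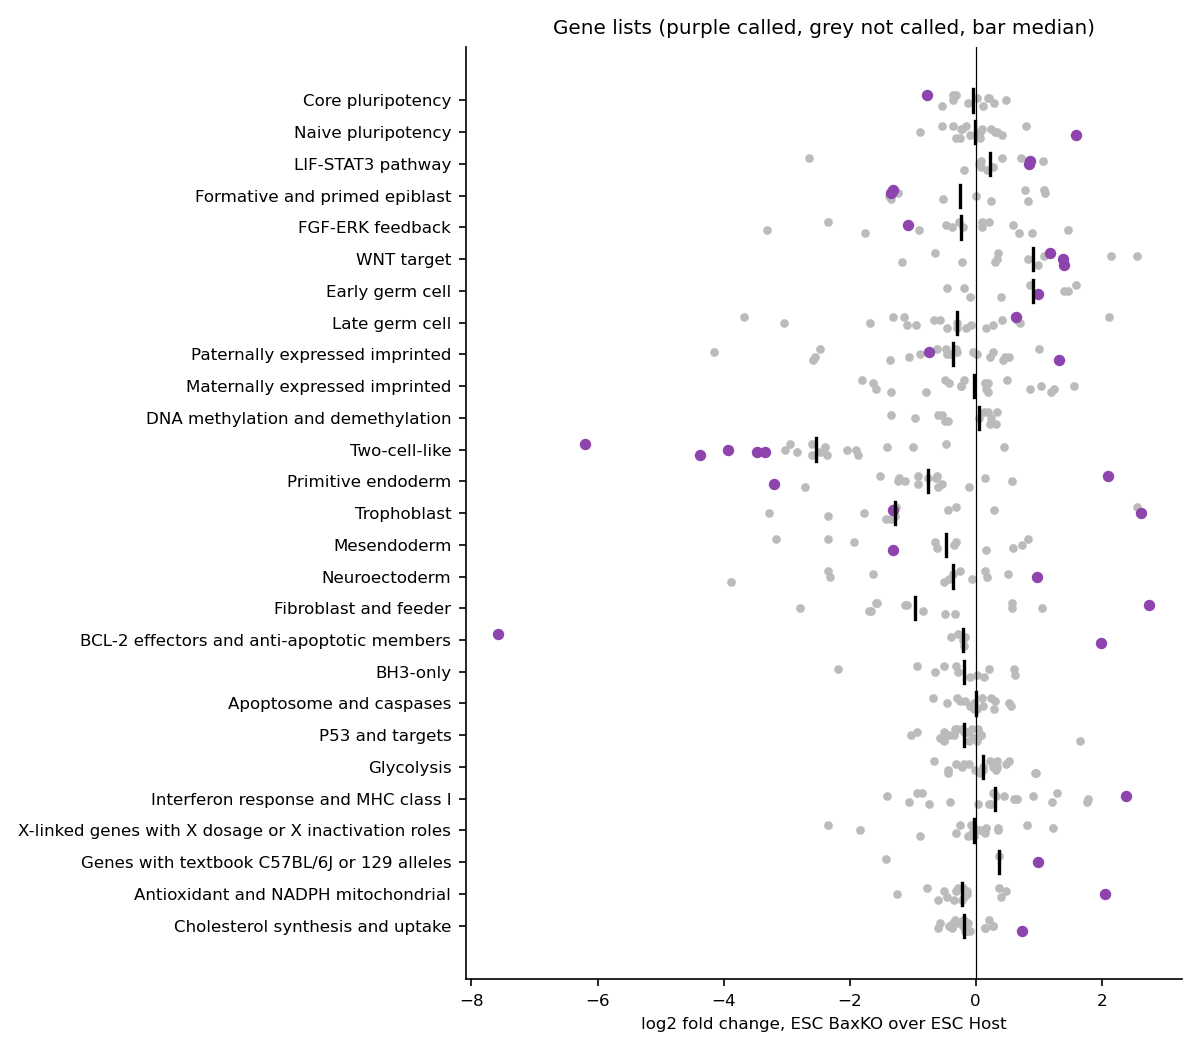
Log2 fold change of ESC BaxKO over ESC Host (horizontal axis) of the tested members of 27 gene lists (one line each, the Y-linked list left out); purple points are called members, grey points are not called and black bars are list medians. Of those drawn, the two-cell-like list has the lowest median, at -2.53, and the WNT target list the highest, at 0.91.

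Y-linked reads also separated the groups. The 7 tested Y-linked genes summed to 255 and 199 scaled CPM in ESC BaxKO, 0 in Host 1 to 3, 18.9 in Host 4 and 0 in ESC BaxHet. Of the 7, 6 had both knockouts above all Host libraries, as did 13.5% of all tested genes. None was called in the fit over all 7 groups, although the list median was 5.89 (log2). Other groups in that fit mixed libraries with and without Y-linked reads. Their mean level per gene ran from 0 to 32.0 scaled CPM in PGC-ESC BaxKO and from 0 to 28.5 in PGC-ESC DKO. Whether this spread kept the genes from being called was not tested. Xist, which coats an inactive X chromosome, was at 3.63 and 6.65 scaled CPM against 0.617 to 6.07 (adjusted p 0.546). None of 17 X-linked genes with roles in X dosage or inactivation was called. Set against 11108 autosomal genes, 404 X-linked genes had a median level of -0.12 and -0.19 (log2) in ESC BaxKO, 0.11 in Host 1, -0.29, -0.30 and -0.23 in Host 2 to 4 and 0.28 in ESC BaxHet. The part of Y-linked and X-linked state in the called genes was not tested beyond the covariate fits.

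At a 4-fold difference, with 1 scaled CPM added, 35 genes (0.214%) differed between the knockout lines, against 56 to 78 genes in the 6 pairs of Host lines. By the chi-square per gene between raw counts, the knockout pair stood at 50.6, above 29.7 for Host 1 and 2 and below the other Host pairs (94.2 to 223). The 4-fold shares were 0.361% for Host 1 and 2, 0.446% for Host 1 and 3, 0.477% for Host 1 and 4, 0.403% for Host 2 and 3, 0.44% for Host 2 and 4 and 0.342% for Host 3 and 4. The largest difference was in Rps18-ps4, at 0.533 and 90.3 scaled CPM in ESC BaxKO 1 and 2 and 0.0975 to 2.52 in the Host lines. Myof, which encodes myoferlin, was at 3.81 and 101 against 3.24 to 11.6, and Mid1, an X-linked ubiquitin ligase, at 182 and 6.79 against 3.67 to 40.4. Ubd, a ubiquitin-like modifier, was at 18.8 and 0 against 19.4 to 31.4. In each of the 4, 1 knockout line was close to the Host range and the other was not. The transcripts of Mid1, and of Spry1, Pou3f1, Meg3 and Xist above, share near-identical stretches with other genes, so the assignment of their reads is uncertain too.

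Rps18-ps4 and Myof were called (5.64 ± 1.04, adjusted p 0.00479, and 2.98 ± 0.72, adjusted p 0.0240) although ESC BaxKO 1 was inside the Host range. Without ESC BaxKO 2 their log2 fold changes were -0.75 (adjusted p 0.773) and -0.80 (0.616), so both rested on that line. Myof also lost its call without Host 3 (0.0643) or Host 4 (0.0582).

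The PGC-ESC lines hold the same pair of strain labels in other libraries. There 3858 of 16363 genes differed between PGC-ESC BaxKO (n = 5) and PGC-ESC DKO (n = 3) (23.6%), 1989 higher (12.2%) and 1869 lower (11.4%). All PGC-ESC BaxKO libraries were in the low Rn45s set and all DKO libraries in the high set. Group and set thus cannot be told apart there, and without DKO 2 1552 genes were called. Genotype at Bax, Puma and Noxa differs between these groups too. PGC-ESC BaxKO 1, 3 and 4 had an X-to-autosome level (log2) of 0.85, 0.82 and 0.73. Lines 2 and 5 of that group both stood at -0.17, and DKO 1 to 3 at -0.24, -0.22 and -0.27. Which of these differences lay behind the called genes, or behind those shared with the ESC lines, was not tested. The same direction was called in both comparisons for 527 genes, which is 64.2% of the 821 and 13.7% of the 3858. By direction these were 305 of the 451 higher genes (67.6%) and 222 of the 370 lower genes (60.0%). Both comparisons came from the same fit and share its estimate of spread for each gene, so their calls are not independent.

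Zfp42 was at 414 to 473 scaled CPM in PGC-ESC BaxKO and 142 to 167 in PGC-ESC DKO (1.55 ± 0.09, adjusted p 1.65e-08), and Ftl1 at 598 to 729 and 3188 to 5978 (-2.72 ± 0.24, adjusted p 2.04e-06). Neither gene overlapped between these groups. Of 166 genes within 5 Mb of Bax, 64 were called in the PGC-ESC lines (38.6%, against 23.6% of all tested genes), 20 higher and 44 lower. Among the 31 called there in the ESC lines, 26 were called in the same direction in the PGC-ESC lines, against 64.2% of all 821 called genes. Of the 20 two-cell-like genes 17 were called lower in PGC-ESC BaxKO, where 11.4% of all tested genes were. Only 1 of the 14 WNT target genes was called higher, Ccnd1 (0.76 ± 0.21, adjusted p 0.0159). That is not above the 12.2% of all tested genes called higher there.

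The difference between both effects was itself called in 13 genes (0.0794%), 6 of them also called in the ESC comparison. EGFP rose in the ESC lines and fell in the PGC-ESC lines (-1.63 ± 0.30), where DKO lines carry the reporter too, at 9051 to 11193 scaled CPM. Pla2g4e was at 14.9 to 25.5 scaled CPM in PGC-ESC DKO, beside 11.1 to 19.6 in PGC-ESC BaxKO, while the Host lines were near 0 (difference 6.58 ± 0.79, adjusted p 0.000516). The other 4 were Ccbe1, Traip, Tes and Serpina3m, of which Tes and Serpina3m lost their ESC calls without ESC BaxKO 1 (adjusted p 0.156 and 0.170) or ESC BaxKO 2 (0.122 and 0.269), and Serpina3m also without Host 3 (0.0729). Ccbe1, a secreted protein of lymphatic growth, was at 7.01 and 6.61 scaled CPM in ESC BaxKO against 0.354 to 0.943 in the Host lines (3.31 ± 0.38), with -0.86 ± 0.31 in the PGC-ESC lines. Traip, a ubiquitin ligase of DNA replication, was at 76.3 and 78.3 against 18 to 31.9 (1.54 ± 0.18), with 0.14 ± 0.16 in the PGC-ESC lines (adjusted p of the difference 0.0328). Olig2 was at 0.0589 to 40.4 scaled CPM in PGC-ESC BaxKO and 55.5 to 73.7 in DKO (-2.14 ± 1.02, adjusted p 0.135), and the difference between its effects did not pass (adjusted p 0.433).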

How the data were processed

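The authors deposited the counts of reads for 21361 genes in 20 libraries as 1 table; per the submitters' processing notes STAR 2.7.7a and mouse build mm10 were used, and no source used here names the counting tool, its strand setting or the annotation. All values were whole numbers, and 0 columns belonged to other samples.

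The members and lists were chosen with earlier results of these data known. The fit used edgeR 4.0.16 under R 4.3.3 (quasi-likelihood F test, TMM scaling, default low-count filter, 7 groups, 13 residual degrees of freedom), two-sided, with Benjamini-Hochberg adjustment over 16363 genes; 4998 genes were untested. The filter counts all 20 libraries. Standard errors are the log2 fold change divided by the square root of F. Positions came from RefSeq on GRCm38.p6 for 21330 genes, 90 by a synonym. Near-identical transcripts (at least 95% over 300 bases) were found with BLAST 2.17.0. Named genes were Bax, EGFP and Xist, the 10 higher and 10 lower with the smallest adjusted p, the 4 largest folds each way, up to 2 called members a list, the 6 called genes nearest Bax and the 4 largest folds between the knockout lines; other genes named were chosen after their values were seen. In simulated data for this comparison, 44.5% of 200 genes changed 2-fold were recovered among 16125 genes (7.29% of calls false) and 87.5% changed 4-fold among 16148 (2.23%). The changed genes were drawn only from genes with a mean above 1 CPM over the 20 libraries, so recovery of lower genes was not measured. Chi-square per gene between libraries of the same group was 29.7 to 223 in ESC BaxKO and ESC Host. Within these groups, no library was thus a second sequencing of another. It cannot tell whether 2 libraries came from the same line or culture, and other pairs were not compared. Alternatives changed scaling, filter, tool (DESeq2 1.42.0), libraries, covariates, replicate block and threshold.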

Additional observations from a re-analysis of the deposited data

Results flagged for a closer look

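Within the 4 Host lines, a library was marked where its gap to the nearest other library, as a share of the group's range on the log2 scale, passed Dixon's critical value of 0.829; chance marks about 1 in 20 groups. Host 4 was marked for Ftl1 (0.871, highest) and Fkbp10 (0.837, lowest). It was also marked for EGFP and for the mean level of Y-linked genes (1.0 each), as the only Host library with such reads. With every other Host library at 0 the share is 1.0 by construction, so the EGFP and Y-linked marks test nothing. Host 1 was marked for Saal1 (0.858, lowest) and for the X-to-autosome ratio (0.83, highest). The marks were not adjusted for the number of genes and measures looked at, so some may be due to chance. Without Host 4, Ftl1 and Fkbp10 were still called, and without Host 1 Saal1 was still called.

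The effect in the ESC lines differed from that in the PGC-ESC lines, by the test of the difference itself (edgeR, adjusted p), for EGFP (16.34 log2 units, adjusted p 2.94e-11) and Pla2g4e (6.58, adjusted p 0.000516). EGFP and Pla2g4e were higher in both ESC BaxKO libraries than in all 4 Host libraries.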

How the results depend on the processing

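The 821 calls (451 higher, 370 lower) became 1423 (719, 704) with DESeq2, 136 (90, 46) with the compared libraries alone in the fit, 399 (246, 153) with ESC and PGC-ESC libraries, 275 (158, 117) with the Y-linked level as a covariate and 224 (152, 72) at an adjusted p under 0.01. Adding the X-to-autosome ratio to that covariate left 616, of which 295 were higher. Leaving out 1 library gave 182 to 1015 calls, 124 to 545 higher and 58 to 470 lower. In the PGC-ESC comparison it gave 1552 to 4198 calls, against 3858. For the difference between effects it gave 9 to 18, against 13, and DESeq2 gave 74. With the replicate number as a block 406 genes were called (233 higher, 173 lower), 4419 in the PGC-ESC comparison and 16 for the difference; numbers 1 and 2 are shared but did not pair the libraries, since deviations of same-numbered lines correlated at -0.02 and 0.00. RLE scaling, no filter and the Rn45s set gave 832, 737 and 910 calls, with 812, 715 and 779 of the 821 among them. Leaving out 1 library, the log2 fold change, whose sign turned, ran from -0.10 to 0.35 for Bnip3l, -0.36 to 0.033 for Cycs, -0.19 to 0.012 for Gapdh, -0.21 to 0.063 for Ddx3x (0.084 with the Y-linked level), -0.75 to 7.17 for Rps18-ps4, -1.36 to 3.38 for Mid1 and -0.80 to 3.93 for Myof. Of all other values of named genes under the alternatives, 810 kept their side of the threshold, 184 lost and 2 gained a call (Meg3 with both covariates, Ubd without ESC BaxKO 1). Where a knockout line is left out, the lone library is assumed to vary like the other groups. The cause of these changes was not tested, except that fewer libraries leave fewer degrees of freedom. Depth limits genes under about 1 scaled CPM, where folds are bounds or wide intervals.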
